A study of Mus musculus with 16 samples.

Results

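The aortas of diabetic and non-diabetic mice were compared while both groups ate ruboxistaurin (RBX, also called LY333531), which inhibits protein kinase C beta. The samples were chosen by their titles: 4 diabetic RBX mice and 4 non-diabetic RBX mice, 8 of the 16 mice in the series, with 1 array of whole aorta for each mouse. All were apolipoprotein E-deficient (APOE-/-) animals aged 18 weeks, on a high fat diet from 8 weeks of age for 10 weeks, with RBX given alongside that diet (at a dose the labels do not state). The diabetic mice had received streptozotocin (STZ), which kills the insulin-producing beta cells, at 6 weeks of age, as a model of insulin loss. No glucose or insulin value was used here. The other 8 mice, 4 diabetic and 4 non-diabetic on the same diet without RBX, served the estimate of spread and 1 comparison of effects. The loss of apolipoprotein E and the high fat diet were shared by every group.

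Protein kinase C beta is a serine-threonine kinase that diacylglycerol activates, and diacylglycerol builds up in vessel wall cells when glucose is high. RBX blocks its ATP site and has been studied against vascular complications of diabetes. The aortic wall is built largely of smooth muscle cells, which contract when they express a set of cytoskeletal genes driven by serum response factor and its coactivator myocardin, with endothelium inside and fibroblasts and fat outside. In apolipoprotein E-deficient mice macrophages also enter the wall and take up cholesterol. The design asks what diabetes does to this tissue when the kinase is inhibited.

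Signals were MAS5 values on a linear scale with no unit of molecules, and 11042 genes were tested with 1 probe set each. Arrays of the non-diabetic RBX mice lay apart from the rest. On the first principal component (30.1% of the variance over 16 arrays) the scores were -7.73, 0.72, -4.51 and 4.28 in diabetic RBX mice, against 21.7, 22.3, 25.6 and 51.9 in non-diabetic RBX mice. Non-diabetic mice without RBX lay at the other end (-25.7, -27.5, -11.8 and -28.9). Diabetic mice without RBX lay between (-10.7, -6.92, 3.74 and -6.41). The log2 signal of the cre hybridisation control, a bacteriophage transcript added to each sample in a fixed amount, averaged 17.86 ± 0.07 in diabetic RBX mice and 18.48 ± 0.37 in non-diabetic RBX mice (SD, n = 4 each; exact two-sided permutation p = 0.0286, the smallest that 4 against 4 allows; adjusted p = 0.0762 over 8 array measures). Without RBX the cre control averaged 17.64 ± 0.17 in diabetic mice and 17.27 ± 0.32 in non-diabetic mice, a difference of the opposite sign. The log2 3' to 5' ratio of Actb, a measure of RNA integrity, averaged 1.71 ± 0.18 in diabetic RBX mice and 2.08 ± 0.39 in non-diabetic RBX mice (exact two-sided permutation p = 0.2, adjusted p = 0.32). None of the 8 array measures passed adjustment, which at 4 against 4 requires that most of the 8 reach the smallest p. This does not show that the arrays were alike. The bioB control, another such transcript, averaged 12.68 ± 0.06 in diabetic RBX mice and 13.47 ± 0.50 in non-diabetic RBX mice, and the median log2 signal of the genes tested 11.05 ± 0.01 in diabetic RBX mice and 11.08 ± 0.03 in non-diabetic RBX mice, both also without overlap (exact two-sided permutation p = 0.0286, adjusted p = 0.0762 for each). The gene groups with calls are also given with log2 cre as a covariate, and the part of these measures in the results was not tested further.

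**Figure D1:**
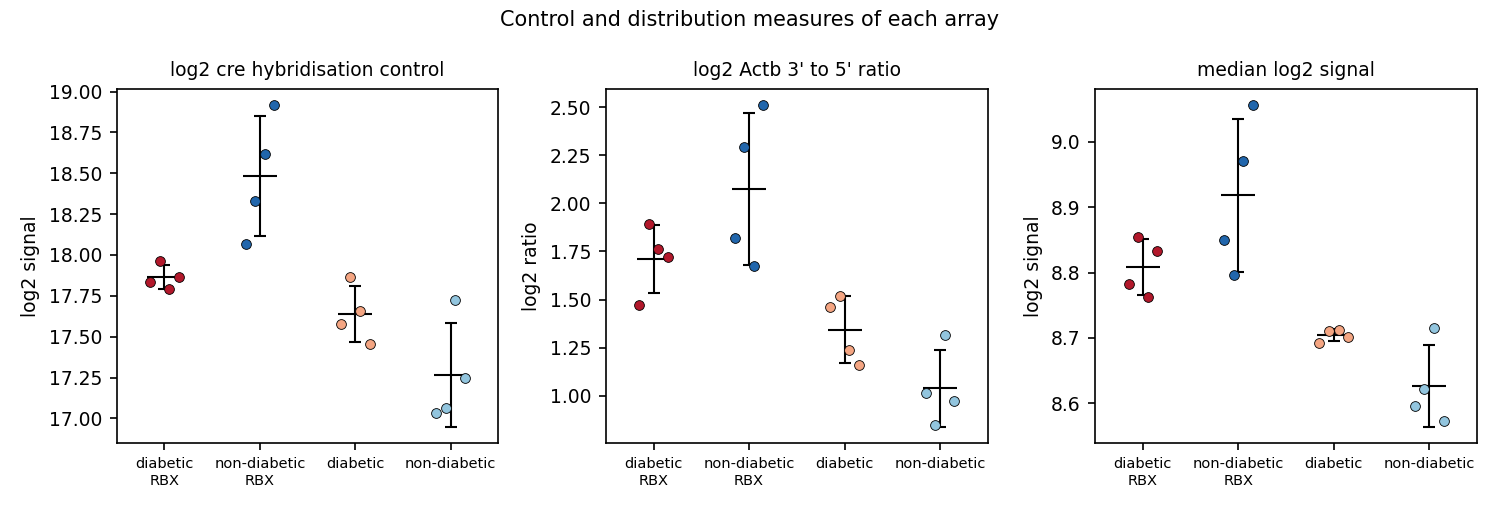
Control and distribution measures of all 16 arrays by group: log2 signal of the cre hybridisation control, log2 3' to 5' ratio of the Actb control, and the median log2 signal. Points are arrays, and lines show the mean and SD of 4 mice. The 4 diabetic RBX arrays lie below the 4 non-diabetic RBX arrays for cre, and the groups overlap for the other 2 measures.

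Diabetes under RBX changed 784 genes (7.1% of those tested) at an adjusted p under 0.05, of which 490 rose (4.44%) and 294 fell (2.66%). Smooth muscle contractile genes, vasoactive signalling genes, some matrix genes, metallothioneins and chaperones were among the rises, and platelet, MHC class II, mitochondrial and some lipid genes among the falls. Changes beyond 2-fold were found for 92 rises (0.833%) and 18 falls (0.163%). The 4 diabetic RBX values lay wholly beyond the 4 non-diabetic RBX values in 1382 genes (12.5%), called or not, and in 666 genes that were also called (6.03%). The largest rises and falls named below were taken from these 666, so their lack of overlap follows from the choice. After quantile normalization 856 genes were called, and 743 of the 784 kept their call and direction.

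The count was 400 without diabetic RBX mouse 1, 410 without diabetic RBX mouse 3 and 500 without non-diabetic RBX mouse 4. With log2 cre as a covariate it was 46, and 44 of the 784 kept their call while 783 kept their sign. The median size of the log2 fold change over these 784 genes was 0.47 with the covariate and 0.62 without it. Among the 74 called genes named here, 11 kept their call in each of the 21 other settings run, cre included: Dtna, Hspb1, Ldb3, Mt1, Mt2, Myocd, Myom1, Pgm5, Postn, Vegfc and Wif1.

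**Figure D2:**
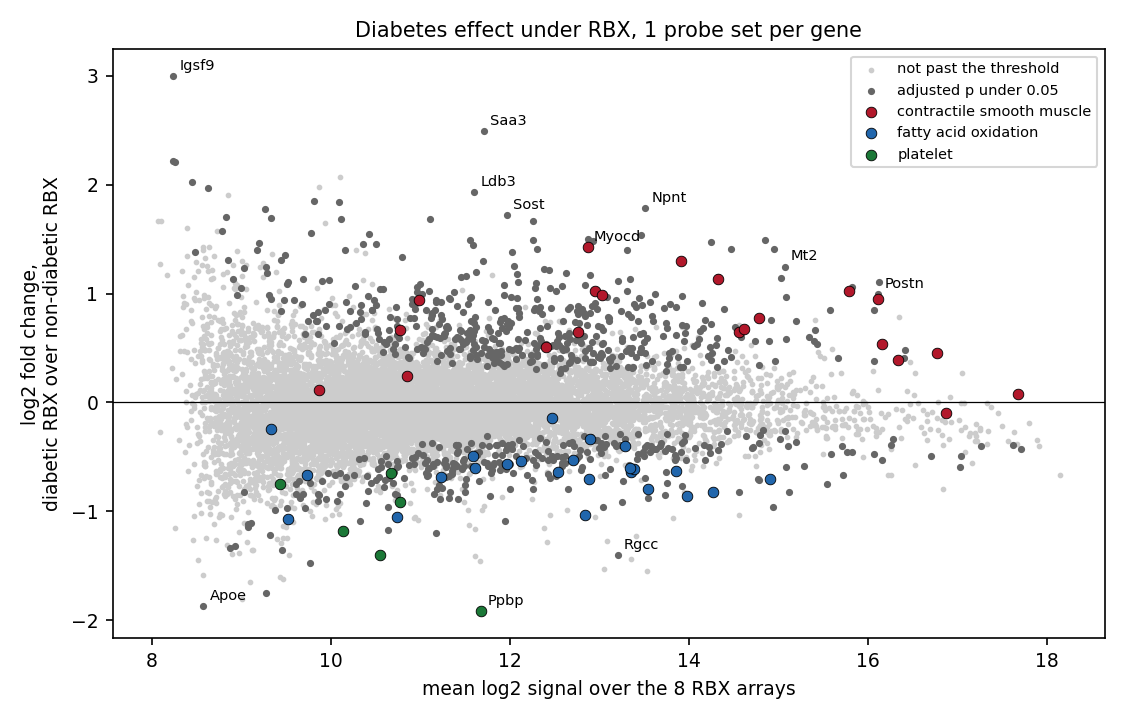
Mean log2 signal over the 8 RBX arrays against the log2 fold change, diabetic RBX over non-diabetic RBX, for 11042 genes. Dark points passed an adjusted p of 0.05, and coloured points are 3 gene lists. The 21 contractile smooth muscle genes lie mostly above 0 (20 of 21), and the 24 fatty acid oxidation genes and 6 platelet genes all lie below 0.

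Apoe is the disrupted gene of these mice. Its signal was 453, 232, 36.9 and 407 in diabetic RBX mice, against 790, 753, 635 and 741 in non-diabetic RBX mice. All 4 diabetic RBX values were lower, with mouse 3 the lowest, and mice 2 and 3 lay below the filter level of 381.5. The log2 fold change was -1.87 (SE 0.55, adjusted p = 0.0462), and without diabetic RBX mouse 3 it was -1.06 (adjusted p = 0.0657). The call was also lost without diabetic RBX mouse 2 or any of the 4 non-diabetic RBX mice (adjusted p from 0.057 to 0.0873). With log2 cre as a covariate the log2 fold change was -1.48 (adjusted p = 0.42). These values check no label, since the position of the probe set relative to the disruption was not looked up. Prkcb, the gene of the inhibited kinase, had signals of 2034, 2292, 2278 and 3013 in diabetic RBX mice, against 2482, 2864, 2801 and 2293 in non-diabetic RBX mice. Its groups overlapped and the difference did not pass (log2 -0.13, SE 0.20, adjusted p = 0.731). Of the 9 measured protein kinase C genes 0 passed in limma, with 7 below 0, 3 of them at an unadjusted p under 0.05 (12.5% of all genes were lower at that level and 11.4% higher), and a median log2 fold change of -0.18.

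Contractile genes of smooth muscle were higher in the diabetic RBX aorta. Of 21 measured members 14 rose and 0 fell, 66.7% against 7.1% of all genes, with a median log2 fold change of 0.66 against -0.04 over all genes. Myocd, which encodes the serum response factor coactivator myocardin, had signals of 13090.1, 14621, 12927 and 9010.4 in diabetic RBX mice, against 5003, 4076, 5358 and 3943 in non-diabetic RBX mice. Each diabetic RBX mouse exceeded each non-diabetic RBX mouse, by 1.42 on the log2 scale (SE 0.16, adjusted p = 0.000174), and with the cre covariate by 1.46 (adjusted p = 0.00855). Myl9, a regulatory light chain of myosin, had 111830, 92095, 99517 and 90686 in diabetic RBX mice, against 65159.5, 65880.4, 41912 and 36740 in non-diabetic RBX mice (log2 0.95, SE 0.16, adjusted p = 0.00166). Vcl, which encodes the focal adhesion protein vinculin, had 39560.1, 36119, 38086 and 33861 in diabetic RBX mice, against 20461, 26959, 18953 and 20559.6 in non-diabetic RBX mice (log2 0.77, SE 0.12, adjusted p = 0.00105). Synpo2, an actin-binding protein of muscle, averaged 24436 ± 3887 in diabetic RBX mice and 10259 ± 3326 in non-diabetic RBX mice (mean ± SD, n = 4 each, as for each later mean), and its log2 fold change was 1.30 (SE 0.21, adjusted p = 0.00162). For these 3 genes as for Myocd the groups did not overlap.

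The best known smooth muscle markers did not all move alike; they are named here outside the naming rule. Myh11, the smooth muscle myosin heavy chain, averaged 80283 ± 3108 in diabetic RBX mice and 41071 ± 12362 in non-diabetic RBX mice (log2 1.02, SE 0.17, adjusted p = 0.00182), and Cnn1, calponin, averaged 30479 ± 2743 in diabetic RBX mice and 14608 ± 5470.3 in non-diabetic RBX mice (log2 1.14, SE 0.19, adjusted p = 0.00216). Tagln rose less (log2 0.45, SE 0.12, adjusted p = 0.0264). Acta2, smooth muscle actin and the brightest of the list, averaged 215298 ± 7059.5 in diabetic RBX mice and 205054 ± 29859 in non-diabetic RBX mice, with overlapping groups (log2 0.08, SE 0.11, adjusted p = 0.692). Tpm2 (log2 -0.10, adjusted p = 0.516) was the member below 0, and Kcnmb1, Lmod1, Des, Synm and Pln were above 0 without passing. Summed over the list, the signal ranged from 977361 to 1085610 in diabetic RBX mice, against 638392 to 931300 in non-diabetic RBX mice. In whole aorta, fewer cells of a type and less RNA per cell cannot be told apart, here and for each group of genes below. The count of 14 was 8 without diabetic RBX mouse 1, 8 without diabetic RBX mouse 3 and 8 without non-diabetic RBX mouse 4. It was 1 with the cre covariate (Myocd) and 7 with the Actb ratio, with medians of 0.28 and 0.58.

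Genes driven by serum response factor often carry a CArG box in their promoter. RefSeq promoter windows of GRCm38.p6, 250 bases before to 50 bases after a gene's start, were searched for the CArG box, which reads the same on both strands, and no other motif was searched. It was present in 22 of 395 genes that rose and had a window (5.57%), in 3 of 246 that fell (1.22%) and in 145 of all 8949 tested genes with a window (1.62%). Of the 16 measured contractile genes with a window, Vcl and Myl9 held it. The windows shown belong to 4 genes that rose, picked from the contractile list and from other genes of muscle structure. Cbr2, a carbonyl reductase, and others of the 22 also held the box and are not shown. Capitals mark the box, which starts 227 bases before the gene start in Vcl, 161 in Myl9, 99 in Myom1 and 35 in the first of 2 overlapping windows of Ldb3. A match is a string of letters and no measure of binding.
Vcl, chr14:20929148-20929447 (+): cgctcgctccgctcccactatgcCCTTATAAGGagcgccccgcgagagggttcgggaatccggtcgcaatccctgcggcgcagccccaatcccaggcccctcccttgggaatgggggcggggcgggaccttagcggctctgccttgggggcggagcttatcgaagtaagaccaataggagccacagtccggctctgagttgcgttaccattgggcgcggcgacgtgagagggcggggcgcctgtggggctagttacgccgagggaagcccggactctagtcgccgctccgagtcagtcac
Myl9, chr2:156775214-156775513 (+): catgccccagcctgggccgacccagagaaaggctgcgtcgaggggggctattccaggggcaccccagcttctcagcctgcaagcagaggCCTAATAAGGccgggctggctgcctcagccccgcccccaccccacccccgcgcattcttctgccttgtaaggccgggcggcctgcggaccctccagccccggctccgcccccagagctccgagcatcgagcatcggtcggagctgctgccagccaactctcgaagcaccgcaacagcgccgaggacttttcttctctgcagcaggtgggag
Myom1, chr17:71019307-71019606 (+): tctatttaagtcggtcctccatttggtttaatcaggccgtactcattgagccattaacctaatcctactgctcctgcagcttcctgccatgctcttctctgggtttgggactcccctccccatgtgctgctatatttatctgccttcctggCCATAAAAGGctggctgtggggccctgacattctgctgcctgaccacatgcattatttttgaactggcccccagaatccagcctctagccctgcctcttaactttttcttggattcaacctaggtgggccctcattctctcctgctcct
Ldb3, chr14:34588632-34588931 (-): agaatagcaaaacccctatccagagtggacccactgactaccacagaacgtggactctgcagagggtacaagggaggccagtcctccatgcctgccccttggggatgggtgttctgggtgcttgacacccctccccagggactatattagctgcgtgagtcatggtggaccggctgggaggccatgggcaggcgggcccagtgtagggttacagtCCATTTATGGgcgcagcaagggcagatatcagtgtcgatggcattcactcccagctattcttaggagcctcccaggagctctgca

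Several genes of muscle structure outside that list also rose, and they are named for the size or the p of their difference and form no list of their own. Ldb3, a Z-disc protein whose window is shown above, had signals of 7563, 5479, 5950 and 5490.1 in diabetic RBX mice, against 2116, 2299, 1439 and 922 in non-diabetic RBX mice. Every diabetic RBX mouse was above every non-diabetic RBX mouse, and the log2 fold change was 1.93 (SE 0.23, adjusted p = 0.00023). Myom1, which encodes the M-band protein myomesin, had 13602, 11113, 13030.3 and 14355 in diabetic RBX mice, against 5742, 5725, 2836 and 5014 in non-diabetic RBX mice (log2 1.48, SE 0.19, adjusted p = 0.00023). The 2 other measured probe sets of Ldb3 had smaller differences (log2 0.54 and 0.28, unadjusted p = 0.252 and 0.216), and the mean over its probe sets gave a log2 fold change of 0.91. Both genes kept their call with the cre covariate (log2 1.29 and 1.16, adjusted p = 0.037 and 0.0441).

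Dtna, alpha-dystrobrevin of the dystrophin complex, had the smallest p of the comparison. Its signal was 6127, 4806, 4461 and 4861 in diabetic RBX mice, against 1968, 1905, 1320.5 and 2087 in non-diabetic RBX mice, 1.49 higher on the log2 scale (SE 0.15, adjusted p = 8.57e-05) with no overlap. Pgm5, a cell adhesion protein related to phosphoglucomutase, averaged 6926 ± 802 in diabetic RBX mice and 3845 ± 193 in non-diabetic RBX mice (log2 0.84, SE 0.10, adjusted p = 0.00023). Itga7, a laminin receptor subunit of muscle, averaged 3312 ± 429 in diabetic RBX mice and 1751 ± 230.5 in non-diabetic RBX mice (log2 0.92, SE 0.14, adjusted p = 0.00105). Mylk4, of the myosin light chain kinase family, averaged 4261 ± 999 in diabetic RBX mice and 1942 ± 579 in non-diabetic RBX mice (log2 1.15, SE 0.22, adjusted p = 0.00388). Myoz2, a calcineurin-binding Z-disc protein, averaged 1728 ± 364 in diabetic RBX mice and 576 ± 345 in non-diabetic RBX mice (log2 1.85, SE 0.39, adjusted p = 0.00856). With the cre covariate Dtna and Pgm5 kept their calls (adjusted p = 0.00833 and 0.0378). Itga7, Mylk4 and Myoz2 lost theirs (log2 0.80, 0.58 and 2.38, adjusted p = 0.0908, 0.306 and 0.0579).

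Actn2, alpha-actinin of the Z-disc, had 756, 821, 596 and 484 in diabetic RBX mice, against 365, 58.8, 418 and 42.7 in non-diabetic RBX mice (log2 2.22, SE 0.57, adjusted p = 0.0243), with the non-diabetic RBX mean below the filter level of 381.5. Its call was lost without diabetic RBX mouse 1, 2 or 3 or non-diabetic RBX mouse 2 or 4 (adjusted p from 0.059 to 0.0706). The call was also lost with the cre covariate (log2 1.80, adjusted p = 0.345). These muscle genes are also heart genes, so markers of heart muscle were looked at. Of 12 heart markers 4 passed the filter, 0 of them changed (1 rise at an unadjusted p under 0.05 in limma), and all 4 were above 0 with a median of 0.59, and their summed signal ranged from 4759 to 10110.2 in diabetic RBX mice, against 2843 to 5683 in non-diabetic RBX mice. The 8 below the filter included Myh6, Myl7, Nppa and Tnni3. After quantile normalization 1 of the 4 was called. Their part in the rises of muscle genes was not tested. Of 13 skeletal muscle markers 1 passed the filter and did not pass the test (log2 0.10).

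Genes that set the response of smooth muscle to vasoactive signals rose in part: 6 of 16 measured rose and 0 fell (37.5%), with a median log2 fold change of 0.19. Rgs5, an inhibitor of G protein signalling typical of pericytes and arterial smooth muscle, had signals of 52614, 50499.7, 51695 and 51183 in diabetic RBX mice, against 20142, 23956, 22561 and 12877 in non-diabetic RBX mice. The diabetic RBX values lay close together and all above the non-diabetic RBX values (log2 1.41, SE 0.24, adjusted p = 0.00216). Rgs4, of the same family, had 2481, 2497, 2568 and 1125 in diabetic RBX mice, against 604, 630.5, 918 and 308 in non-diabetic RBX mice (log2 1.84, SE 0.32, adjusted p = 0.00258). Diabetic RBX mouse 4 was well below the other 3 and still above the other group.

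Ptgis, the enzyme that makes prostacyclin, averaged 50954 ± 4407 in diabetic RBX mice and 33983 ± 6043 in non-diabetic RBX mice (log2 0.60, SE 0.12, adjusted p = 0.00503). Ramp1, which forms part of the receptor for the vasodilator CGRP, averaged 7081 ± 989 in diabetic RBX mice and 3782 ± 1170.0 in non-diabetic RBX mice (log2 0.95, SE 0.21, adjusted p = 0.0109). The other 2 rises were Cacna1c, the L-type calcium channel (log2 1.18), and Kcnma1, the large calcium-activated potassium channel (log2 0.85). Among members that did not pass were Edn1, which encodes endothelin 1 (log2 -0.46, adjusted p = 0.264), and Agtr1a, the angiotensin receptor (log2 0.26, adjusted p = 0.833). With the cre covariate 0 of the 6 were called and with the Actb ratio 3.

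Of 23 measured collagen and elastic fibre genes 3 rose and 0 fell (13%, against 7.1% of all genes), with a median log2 fold change of 0.24. Postn, which encodes the matricellular protein periostin, had signals of 107230, 105155, 116853 and 76096 in diabetic RBX mice, against 47887, 61294, 53842 and 40032 in non-diabetic RBX mice. No values overlapped, and the log2 fold change was 0.997 (SE 0.14, adjusted p = 0.000653), or 0.97 with the cre covariate (adjusted p = 0.0441). Lox, the enzyme that cross-links collagen and elastin, averaged 19699.7 ± 3808 in diabetic RBX mice and 10619 ± 2945 in non-diabetic RBX mice (log2 0.91, SE 0.16, adjusted p = 0.00268). Tnc, tenascin C, averaged 8776 ± 1661 in diabetic RBX mice and 4818 ± 710.2 in non-diabetic RBX mice (log2 0.86, SE 0.19, adjusted p = 0.0095). Without non-diabetic RBX mouse 3 the count was 5, and with the cre covariate it was 1, at a median of 0.11. The list's sum overlapped between the groups, from 934871 to 1203020 in diabetic RBX mice and from 724371 to 1094100 in non-diabetic RBX mice.

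Npnt, which encodes the integrin ligand nephronectin, had signals of 27316, 16606, 24269.7 and 19836 in diabetic RBX mice, against 8954, 10692, 5523 and 2915 in non-diabetic RBX mice (log2 1.79, SE 0.29, adjusted p = 0.00166). With the cre covariate Npnt was not called (log2 0.93, adjusted p = 0.179). Of 20 matrix proteases and inhibitors 1 rose and 2 fell (15% called, against 7.1% of all genes), with a median of -0.21. Neither direction had a call with the cre covariate, and the median was then above 0, at 0.15. Adamts1, a protease that cleaves proteoglycans, averaged 9715 ± 1426 in diabetic RBX mice and 5634 ± 1005 in non-diabetic RBX mice (log2 0.79, SE 0.14, adjusted p = 0.00259). Mmp12, macrophage elastase, had 30534, 24845, 29443 and 22752 in diabetic RBX mice, against 34476, 44773, 68064 and 47606 in non-diabetic RBX mice (log2 -0.82, SE 0.23, adjusted p = 0.036). Its call was lost without each of 7 of the 8 mice, all but non-diabetic RBX mouse 1 (adjusted p from 0.0533 to 0.0862). Mmp23 fell by 0.37 on the log2 scale (SE 0.08, adjusted p = 0.0118), and another probe set of the gene had the opposite sign.

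Of 25 measured genes of mural and developmental signalling 4 rose and 1 fell (20% called, against 7.1% of all genes), with a median log2 fold change of 0.09. The rises included a pair of secreted inhibitors of Wnt signalling. Sost, which encodes sclerostin, had signals of 9116, 7025, 7474 and 5743 in diabetic RBX mice, against 4178, 2697, 1721 and 1211 in non-diabetic RBX mice (log2 1.72, SE 0.29, adjusted p = 0.00216). Wif1 had 2310.3, 2384, 2475 and 1616 in diabetic RBX mice, against 789.6, 864, 969 and 594 in non-diabetic RBX mice (log2 1.45, SE 0.18, adjusted p = 0.00023), and with the cre covariate the log2 fold change was 1.22 (adjusted p = 0.0441). All 4 diabetic RBX values were above all 4 non-diabetic RBX values for both genes. Ltbp1, which holds latent TGF-beta in the matrix, averaged 12922 ± 1465 in diabetic RBX mice and 6968 ± 2193 in non-diabetic RBX mice (log2 0.94, SE 0.18, adjusted p = 0.00379). Dkk3, of the dickkopf family, was the fourth rise (log2 0.73, adjusted p = 0.0307), and Bmp2, a bone morphogenetic protein, was the fall (log2 -0.85, adjusted p = 0.0161). The last 2 are named to complete the count. Wif1 was the 1 call of the list with the cre covariate.

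Vegfc, which encodes a growth factor for lymphatic vessels, fell with little spread. Its signal was 1706, 2124, 2020 and 2253 in diabetic RBX mice, against 3918, 3805, 3749.6 and 3457 in non-diabetic RBX mice, without overlap (log2 -0.89, SE 0.11, adjusted p = 0.00023), and the fall was as large with the cre covariate (log2 -0.88, adjusted p = 0.0251). Another probe set of Vegfc had a log2 fold change of 0.27 (unadjusted p = 0.11). Of the 20 endothelial markers 0 rose and 0 fell, with 16 below 0 and a median of -0.31. At an unadjusted p under 0.05, 5 of them were lower, as were 12.5% of all genes. Their summed signal ranged from 107832 to 123602 in diabetic RBX mice, against 116718 to 165915 in non-diabetic RBX mice, and with the cre covariate the median was -0.14.

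Metallothioneins, small proteins that bind zinc and copper and are induced by metals, glucocorticoids and oxidants, were higher in the diabetic RBX aorta. Mt2 had signals of 48385, 56805, 56607 and 50402 in diabetic RBX mice, against 19863, 26074, 23946 and 19985 in non-diabetic RBX mice (log2 1.25, SE 0.16, adjusted p = 0.00023). Mt1 had 66477, 63646, 71313 and 60439.5 in diabetic RBX mice, against 25945, 40703, 42231 and 38409 in non-diabetic RBX mice (log2 0.85, SE 0.17, adjusted p = 0.00511). Neither gene's groups overlapped, and both were larger with the cre covariate (log2 1.51 and 1.31, adjusted p = 0.00231 for each). Nox4, an NADPH oxidase that makes hydrogen peroxide, had 17687, 13053, 15419 and 15839 in diabetic RBX mice, against 11047, 7515, 6688 and 4339 in non-diabetic RBX mice (log2 1.14, SE 0.20, adjusted p = 0.00266). These 3 are the rises among 19 oxidant and antioxidant genes, of which 1 fell, Ncf4 of the phagocyte oxidase (log2 -0.79, adjusted p = 0.00958). Of the list 21.1% was called, against 7.1% of all genes, with a median of -0.17. Both metallothioneins were the calls with the cre covariate, and the median was then above 0, at 0.029.

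Heat shock genes rose for 4 of 20 measured members and fell for 0 (20%, against 7.1% of all genes), with a median of 0.20. Hspb1, the small heat shock protein Hsp27, had signals of 54514, 41316, 53281 and 49833 in diabetic RBX mice, against 24664, 23600.2, 13632 and 12043 in non-diabetic RBX mice (log2 1.49, SE 0.19, adjusted p = 0.00032). Dnajb4, an Hsp40 co-chaperone, averaged 12535 ± 3261 in diabetic RBX mice and 6267 ± 871 in non-diabetic RBX mice (log2 0.97, SE 0.18, adjusted p = 0.0032), and Hsp90aa1 averaged 37136 ± 4820.0 in diabetic RBX mice and 25132 ± 2654 in non-diabetic RBX mice (log2 0.56, SE 0.13, adjusted p = 0.012). Hsp90aa1 lost its call without diabetic RBX mouse 3 (adjusted p = 0.0505), without which 2 of the list rose. Hspa4l, an Hsp70 relative, was the fourth (log2 0.75, adjusted p = 0.0357). The inducible Hsp70 genes Hspa1a and Hspa1b, near-identical copies that can share signal, had log2 fold changes of 0.53 and 0.55 and did not pass (adjusted p = 0.0907 and 0.0599). With the cre covariate Hspb1 was the 1 call of the list (log2 0.92, adjusted p = 0.0441). Of 22 unfolded protein response genes 0 rose and 1 fell (4.55%), with 21 below 0. With the cre covariate 0 rose and 1 fell, at a median of -0.39, against -0.23 without it.

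Saa3, an acute phase apolipoprotein made by macrophages and fat cells, had the next rise after Igsf9 in size among named genes. Its signal was 7929, 10863, 9119.7 and 4996 in diabetic RBX mice, against 969, 2950.1, 1602 and 859.6 in non-diabetic RBX mice, 2.49 higher on the log2 scale (SE 0.36, adjusted p = 0.000782), and 2.32 with the cre covariate (adjusted p = 0.0579). The groups did not overlap. Macrophage and foam cell markers did not follow: 0 of 23 measured passed, 22 were below 0, and the median was -0.32, or 0.14 with the cre covariate. At an unadjusted p under 0.05, 5 of these markers were lower, as were 12.5% of all genes. Their summed signal ranged from 744923 to 784930 in diabetic RBX mice, against 684647 to 1187880 in non-diabetic RBX mice.

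Resident macrophage markers split. Pf4, platelet factor 4, which macrophages and platelets both make, had signals of 8833, 9221, 7450.4 and 9834 in diabetic RBX mice, against 18406, 14834, 13396 and 18503 in non-diabetic RBX mice (log2 -0.88, SE 0.13, adjusted p = 0.000812). Ccl8, a chemokine of resident macrophages, had 8204, 10053, 9979 and 8924 in diabetic RBX mice, against 7710, 5941, 3224 and 4986 in non-diabetic RBX mice (log2 0.83, SE 0.21, adjusted p = 0.0209), and lost its call without diabetic RBX mouse 2 or 3 (adjusted p = 0.0569 and 0.0638). Cbr2, a carbonyl reductase, rose by 0.64 (SE 0.19, adjusted p = 0.0432), lost its call without any of 6 mice, diabetic RBX 1 to 4 and non-diabetic RBX 3 and 4 (adjusted p from 0.0709 to 0.127), and was -0.042 with the cre covariate. Those are all the calls among 13 measured members (23.1%, against 7.1% of all genes), and with the cre covariate 0 were called. Of the 28 measured interferon response genes 0 passed, 4 had an unadjusted p under 0.05 (24% of all genes did), and the median was -0.11.

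Platelet genes were lower in the diabetic RBX aorta, 5 of 6 measured (83.3%, against 7.1% of all genes), and none rose. Ppbp, which encodes the platelet basic protein, had signals of 1134, 1639, 1116 and 3909.7 in diabetic RBX mice, against 7258, 6357, 3290.5 and 10832 in non-diabetic RBX mice (log2 -1.92, SE 0.42, adjusted p = 0.00967). Diabetic RBX mouse 4 overlapped the lowest non-diabetic RBX mouse. Tubb1, the tubulin of megakaryocytes, had 528, 779, 1041 and 1658 in diabetic RBX mice, against 2807, 1782, 1668 and 4119 in non-diabetic RBX mice (log2 -1.40, SE 0.40, adjusted p = 0.043). Treml1 had 885, 614, 409.9 and 1412 in diabetic RBX mice, against 1876, 1673, 1442 and 1832 in non-diabetic RBX mice (log2 -1.18, SE 0.32, adjusted p = 0.0312). Itga2b, the platelet integrin alpha IIb, fell by 0.91 (SE 0.25, adjusted p = 0.0309), Gp1bb by 0.65 (SE 0.18, adjusted p = 0.0329), and Gp5 had a log2 fold change of -0.75 that did not pass (adjusted p = 0.171).

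The summed platelet signal ranged from 5057 to 10749.7 in diabetic RBX mice, against 10567.5 to 23999.5 in non-diabetic RBX mice, and Gp9, Gp1ba and Gp6 were among the members below the filter. The count of 5 was 1 without diabetic RBX mouse 1, diabetic RBX mouse 3 or non-diabetic RBX mouse 4, 2 without non-diabetic RBX mouse 1, and 3 without diabetic or non-diabetic RBX mouse 2. Tubb1, Treml1 and Itga2b each lost their calls without at least 4 of the 8 mice (adjusted p from 0.0533 to 0.144), while Ppbp kept its own without any. With either covariate 0 of 6 were called, and the median of -1.05 was -0.64 with cre. Of the erythroid list 2 of 10 genes passed the filter and 0 changed in limma, 1 of them above 0 at an unadjusted p under 0.05.

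MHC class II genes, which present antigen on macrophages, dendritic cells and B cells, fell in part: 4 of 7 measured fell and 0 rose (57.1%), with a median of -0.44. H2-Ab1 had signals of 11981, 10033, 11739 and 9199.7 in diabetic RBX mice, against 17554, 17396, 16326 and 20088 in non-diabetic RBX mice (log2 -0.74, SE 0.13, adjusted p = 0.00216). H2-Aa had 39553, 41172, 41009.9 and 45945 in diabetic RBX mice, against 56157, 55682, 53482 and 68420.3 in non-diabetic RBX mice (log2 -0.47, SE 0.10, adjusted p = 0.00652). H2-Eb1 averaged 16164 ± 1652 in diabetic RBX mice and 21186 ± 2253 in non-diabetic RBX mice (log2 -0.39, SE 0.11, adjusted p = 0.0366), and Cd74, the invariant chain, averaged 33157 ± 3419.8 in diabetic RBX mice and 42784 ± 4405 in non-diabetic RBX mice (log2 -0.37, SE 0.10, adjusted p = 0.0402). All 4 had groups without overlap. The summed class II signal ranged from 101363 to 108717 in diabetic RBX mice, against 133032 to 164397 in non-diabetic RBX mice. The count was 2 without diabetic RBX mouse 3 or 4 or non-diabetic RBX mouse 1 or 4, and H2-Eb1 lost its call without any of these or diabetic RBX mouse 1 (adjusted p from 0.0566 to 0.104). With the cre covariate it was 0, at a median of -0.41.

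Of 13 class I and immunoproteasome genes 0 rose and 2 fell (15.4%, against 7.1% of all genes), both subunits of the immunoproteasome, and all 13 were below 0. No call was left with the cre covariate, at a median of -0.19, against -0.26 without it. Psmb8 averaged 3368 ± 252 in diabetic RBX mice and 4996 ± 471 in non-diabetic RBX mice (log2 -0.57, SE 0.13, adjusted p = 0.0122), although another of its probe sets had the opposite sign. Psmb9 averaged 1295 ± 221 in diabetic RBX mice and 2157 ± 348 in non-diabetic RBX mice (log2 -0.74, SE 0.19, adjusted p = 0.0222), a call lost without diabetic RBX mouse 2 or 3 or non-diabetic RBX mouse 4 (adjusted p from 0.0604 to 0.0737). Lymphocyte markers were sparse. Of 14 T cell genes 4 passed the filter and of 10 B cell and plasma cell genes 3, with 0 changed in either list, none of them at an unadjusted p under 0.05 in limma, and Cd3e, Cd3d, Cd4 and Cd79a were among those below it. Of 11 neutrophil genes 3 passed the filter and 0 changed, likewise with none at an unadjusted p under 0.05.

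Genes of mitochondrial fat oxidation had lower mean log2 signals in the diabetic RBX aorta, and few of them passed the test. All 24 measured genes were below 0, 4 fell (16.7%, against 7.1% of all genes), and the median was -0.63. An unadjusted p under 0.05 was found for 18, and 12.5% of all genes were lower at that level. Acot2, a mitochondrial thioesterase, had signals of 1592, 1992, 1770.3 and 2331 in diabetic RBX mice, against 3298, 2958, 2622 and 3384 in non-diabetic RBX mice (log2 -0.68, SE 0.15, adjusted p = 0.0118). Acadl, the long-chain acyl-CoA dehydrogenase, had 11108, 11096, 11152 and 15140.1 in diabetic RBX mice, against 22828, 23591, 12419.5 and 33549.9 in non-diabetic RBX mice (log2 -0.86, SE 0.22, adjusted p = 0.0242). Diabetic RBX mouse 4 was the highest of its group and non-diabetic RBX mouse 3 the lowest of its own, so the groups overlapped. Etfb, which carries electrons from fat oxidation, averaged 9083 ± 1115 in diabetic RBX mice and 16334 ± 5071 in non-diabetic RBX mice (log2 -0.79, SE 0.19, adjusted p = 0.0175). Hadha, of the trifunctional protein, completed the count of 4 (log2 -0.53, adjusted p = 0.042).

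The number of these genes called depended on single mice. The summed signal of the list ranged from 138748 to 193139 in diabetic RBX mice, against 147688 to 374693 in non-diabetic RBX mice, the lowest of which was mouse 3. Without it 18 of 24 fell. The count was 1 without diabetic RBX mouse 1, diabetic RBX mouse 3 or non-diabetic RBX mouse 4, and 2 without mouse 2 of either group. Acadl lost its call without diabetic RBX mouse 1, 2 or 3 or non-diabetic RBX mouse 2 or 4 (adjusted p from 0.0526 to 0.0773), Acot2 without diabetic RBX mouse 1 (0.0507), and Etfb without diabetic RBX mouse 3 or non-diabetic RBX mouse 4 (0.0631 and 0.0583). With either covariate 0 were called, at medians of -0.38 with cre and -0.26 with the Actb ratio.

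Of 26 measured subunits of oxidative phosphorylation 7 fell and 0 rose (26.9%, against 7.1% of all genes), 25 were below 0, and the median was -0.33. Atp5b, the catalytic beta subunit of ATP synthase, had signals of 28589.7, 31608, 34509 and 36429.6 in diabetic RBX mice, against 44918, 54429.9, 37717 and 62306 in non-diabetic RBX mice (log2 -0.58, SE 0.13, adjusted p = 0.0128). Sdhb of complex II averaged 13384 ± 604 in diabetic RBX mice and 19502 ± 3572 in non-diabetic RBX mice (log2 -0.52, SE 0.13, adjusted p = 0.0221). Uqcrc1 of complex III averaged 7677 ± 999 in diabetic RBX mice and 13030.2 ± 3928 in non-diabetic RBX mice (log2 -0.72, SE 0.17, adjusted p = 0.0151), with overlap. Without non-diabetic RBX mouse 3 the count was 17, and it was 1 without diabetic RBX mouse 1, 2 without diabetic RBX mouse 3 or non-diabetic RBX mouse 4, and 3 without mouse 2 of either group. Atp5b lost its call without diabetic RBX mouse 1 (adjusted p = 0.0542) and Sdhb without diabetic RBX mouse 1 or 3 or non-diabetic RBX mouse 2 or 4 (adjusted p from 0.0567 to 0.0712). With either covariate 0 of the 26 were called, at medians of -0.19 with cre and -0.11 with the Actb ratio. Glycolysis genes had 0 rises and 1 fall among 15 (6.67%), and cytosolic ribosomal genes 0 rises and 1 fall among 16 (6.25%). With the cre covariate 0 of either list were called.

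Markers of fat cells, which surround the aorta, had medians below 0 as the mitochondrial genes did, with few calls. Of 11 brown fat markers 1 rose and 1 fell (18.2% called) with a median of -0.99. Of 11 white fat markers 1 rose and 2 fell (27.3% called) with a median of -0.66, and 7.1% of all genes were called. Ucp1, the uncoupling protein that defines brown fat, had a log2 fold change of -1.55 and did not pass (SE 0.70, adjusted p = 0.183), and neither did Adipoq, adiponectin (log2 -0.83, SE 0.42, adjusted p = 0.238). The summed brown fat signal ranged from 33438 to 74496 in diabetic RBX mice, against 40492 to 149538 in non-diabetic RBX mice. The white fat sum ranged from 179593 to 272071 in diabetic RBX mice, against 244931 to 500234 in non-diabetic RBX mice. Plin1, Lep and Cfd of the white list and Zic1 and Kng2 of the brown list were below the filter. The part of fat cells in the mitochondrial differences was not tested.

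Otop1, a proton channel and the brown fat fall, had signals of 215, 234, 269.8 and 955 in diabetic RBX mice, against 1238, 1173, 666 and 1705 in non-diabetic RBX mice (log2 -1.75, SE 0.47, adjusted p = 0.0318), and was lost without any of 6 mice, diabetic RBX 1 to 3 and non-diabetic RBX 1, 2 and 4 (adjusted p from 0.0547 to 0.103). Cebpa, a transcription factor of fat cells and macrophages, had 2709.5, 3874, 3399 and 3481 in diabetic RBX mice, against 4519.5, 5814, 4139 and 6874 in non-diabetic RBX mice (log2 -0.65, SE 0.16, adjusted p = 0.0166), and lost its call without diabetic RBX mouse 1 or non-diabetic RBX mouse 4 (adjusted p = 0.0661 and 0.0561). The rises ran against their lists. Prdm16, a transcription factor of brown fat that arterial cells also express, averaged 10196 ± 482 in diabetic RBX mice and 7050.3 ± 1326 in non-diabetic RBX mice (log2 0.55, SE 0.13, adjusted p = 0.015), and Plin4, a lipid droplet coat protein, averaged 19311 ± 2971 in diabetic RBX mice and 13156 ± 2532 in non-diabetic RBX mice (log2 0.56, SE 0.15, adjusted p = 0.0286). Pnpla2, the triglyceride lipase ATGL, was the other white fat fall (log2 -0.66, SE 0.20, adjusted p = 0.0461), and another probe set had the opposite sign.

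Without non-diabetic RBX mouse 3, 8 of 11 white and 4 of 11 brown fat markers fell. Without diabetic RBX mouse 1 or non-diabetic RBX mouse 4 none of either list fell. With either covariate 0 of either list were called. The brown fat median was then -0.58 with cre and -0.35 with the Actb ratio, and the white fat median -0.40 with cre and -0.28 with the Actb ratio. Prdm16 lost its call without diabetic RBX mouse 1 or non-diabetic RBX mouse 4 (adjusted p = 0.0513 and 0.0501). Its adjusted p was 0.297 with the cre covariate and 0.124 with the Actb ratio. Plin4 lost its call without diabetic RBX mouse 1, 3 or 4 or non-diabetic RBX mouse 3 or 4 (from 0.0605 to 0.0875). Pnpla2 lost its call without any mouse but non-diabetic RBX mouse 3 (from 0.0545 to 0.135).

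Of 18 genes of fatty acid and triglyceride synthesis 1 fell and 0 rose (5.56%, against 7.1% of all genes), with a median of -0.63. Me1, malic enzyme, which supplies NADPH for that synthesis, averaged 1793 ± 256 in diabetic RBX mice and 2758 ± 657 in non-diabetic RBX mice (log2 -0.60, SE 0.17, adjusted p = 0.0382). Its call was lost without diabetic RBX mouse 1, 2 or 3 or non-diabetic RBX mouse 1 or 2 (adjusted p from 0.0795 to 0.112), and another probe set had the opposite sign. Without non-diabetic RBX mouse 3 the count was 8, without diabetic RBX mouse 4 it was 6, and it was 0 without diabetic RBX mouse 1, 2 or 3 or non-diabetic RBX mouse 1 or 2. With either covariate 0 of the 18 were called, at medians of -0.55 with cre and -0.23 with the Actb ratio. Fasn, fatty acid synthase, had -1.23 on the log2 scale and did not pass (SE 0.41, adjusted p = 0.0785).

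Among 15 cholesterol storage and efflux genes 2 fell and 0 rose (13.3%, against 7.1% of all genes), with a median of -0.34. Under the cre covariate 0 fell and the median was above 0, at 0.089. Nr1h3, which encodes the oxysterol receptor LXR alpha, had signals of 1437, 987, 1124 and 1220.2 in diabetic RBX mice, against 1878, 1699, 2319.9 and 2271 in non-diabetic RBX mice (log2 -0.78, SE 0.17, adjusted p = 0.00941). Plin2, the lipid droplet protein of foam cells, had 21508, 21599, 21107 and 25986 in diabetic RBX mice, against 28025, 35001, 63030.3 and 59224 in non-diabetic RBX mice (log2 -0.96, SE 0.26, adjusted p = 0.0344). The non-diabetic RBX mice 3 and 4 were the highest for Plin2, and its call was lost without either of them or without diabetic RBX mouse 1, 2 or 3 (adjusted p from 0.0759 to 0.0999). Plin2 had a log2 fold change of -0.25 with the cre covariate (adjusted p = 0.751). Of 18 cholesterol synthesis and uptake genes 0 rose and 1 fell (5.56%), with a median of -0.25, and with the cre covariate 0 were called.

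Among 23 insulin signalling and glucose uptake genes 3 rose and 1 fell (17.4% called, against 7.1% of all genes), and the median was -0.02. Igf1r, the receptor for insulin-like growth factor 1, had signals of 18184, 15004, 17472 and 14172 in diabetic RBX mice, against 9704, 10881, 9517 and 8355 in non-diabetic RBX mice (log2 0.75, SE 0.13, adjusted p = 0.00216). Igfbp5, which binds that growth factor, had 21853, 22053, 23267 and 20646 in diabetic RBX mice, against 46329, 38671, 28025 and 32391 in non-diabetic RBX mice (log2 -0.70, SE 0.14, adjusted p = 0.00503). The groups did not overlap for either. Pik3ca, the catalytic subunit of PI3 kinase, rose by 0.48 (SE 0.12, adjusted p = 0.0182), lost its call without diabetic RBX mouse 3 or non-diabetic RBX mouse 4 (adjusted p = 0.0657 and 0.0569), and had another probe set of opposite sign. Igfbp7 was the other rise (log2 0.38, adjusted p = 0.0411). None of the 23 was called with the cre covariate.

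The highest rise of all was Igsf9, an adhesion protein of the immunoglobulin family. Its signal was 753, 1028, 848 and 801 in diabetic RBX mice, against 400.5, 38.5, 243 and 34.6 in non-diabetic RBX mice (log2 2.997, SE 0.60, adjusted p = 0.00592), and the size rests on values below the filter level in the non-diabetic RBX mice. The same holds for Krtap12-1, a keratin-associated protein, with 627, 824, 694 and 517 in diabetic RBX mice, against 113, 403, 149.9 and 60.1 in non-diabetic RBX mice (log2 2.21, SE 0.46, adjusted p = 0.00713). Tpd52l1 averaged 1142 ± 152 in diabetic RBX mice and 493 ± 421 in non-diabetic RBX mice (log2 1.78, SE 0.49, adjusted p = 0.035), and lost its call without diabetic RBX mouse 1, 2 or 3 or non-diabetic RBX mouse 2 or 3 (adjusted p from 0.0728 to 0.0926). With the cre covariate none of the 3 was called.

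Rgcc, a cell cycle regulator and complement response gene, was among the largest falls. Its signal was 3204, 8046, 5817 and 7590.4 in diabetic RBX mice, against 12834, 16649.8, 10122 and 25511 in non-diabetic RBX mice, without overlap (log2 -1.40, SE 0.33, adjusted p = 0.0152). It lost its call without diabetic RBX mouse 1 (log2 -1.11, adjusted p = 0.0627) or non-diabetic RBX mouse 4 (log2 -1.15, adjusted p = 0.0528). Tcof1, which encodes the nucleolar protein treacle, had 868, 1132, 1116 and 1144 in diabetic RBX mice, against 2628, 1962, 1999 and 3115 in non-diabetic RBX mice (log2 -1.17, SE 0.20, adjusted p = 0.00216). Rtn4rl1, of the Nogo receptor family, fell by 1.36 on its brightest probe set (SE 0.32, adjusted p = 0.0149), while another rose by 1.17 (unadjusted p = 0.0297), and without diabetic RBX mouse 1 the adjusted p was 0.0511. With the cre covariate Rgcc, Tcof1 and Rtn4rl1 were not called (log2 -0.79, -1.29 and -1.40, adjusted p = 0.429, 0.0518 and 0.194).

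The other large falls were in dim genes, whose non-diabetic RBX means ranged from 779 for Fcor to 816 for Fgf4. Fcor, a corepressor of FoxO1, fell by 1.34 (SE 0.32, adjusted p = 0.0155), the homeobox gene Nkx2-6 by 1.32 (SE 0.37, adjusted p = 0.0392), the galactosyltransferase gene B3galt5 by 1.14 (SE 0.34, adjusted p = 0.0492) and Fgf4, a fibroblast growth factor, by 1.11 (SE 0.30, adjusted p = 0.0334). All 4 had groups without overlap, as the rule that named them required. With the cre covariate none of the 4 was called (adjusted p from 0.236 to 0.44). Each lost its call without diabetic RBX mouse 1 and without non-diabetic RBX mouse 4 (adjusted p from 0.0531 to 0.128), Nkx2-6, B3galt5 and Fgf4 also without diabetic RBX mouse 3 or non-diabetic RBX mouse 1 (from 0.0572 to 0.126), and B3galt5 without diabetic RBX mouse 4 or non-diabetic RBX mouse 3 (0.099 and 0.0631).

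**Figure D3:**
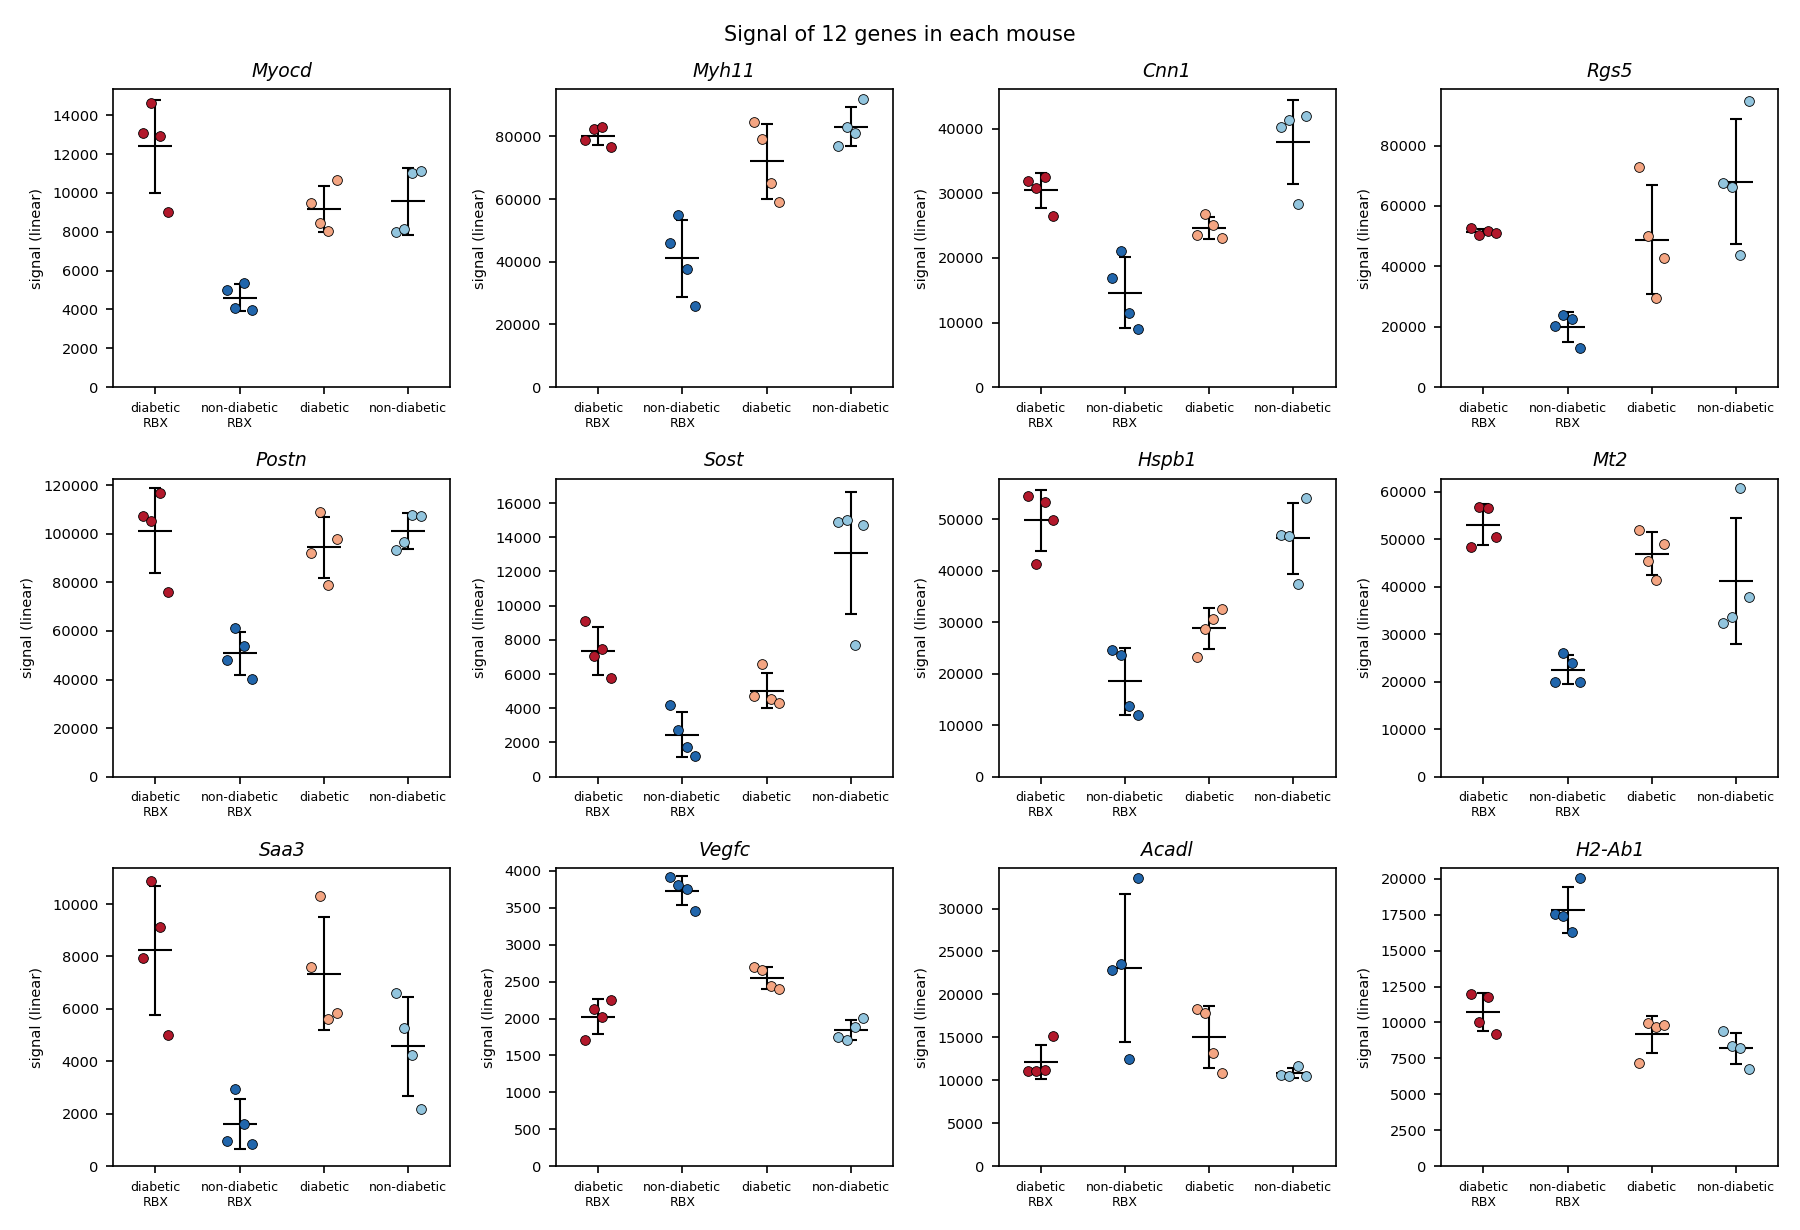
Linear signal of 12 genes in each of the 16 mice, with lines for the mean and SD of 4 mice. Groups run from diabetic RBX and non-diabetic RBX to diabetic and non-diabetic mice without RBX. In 11 of the 12 genes the diabetic RBX values do not overlap the non-diabetic RBX values, the exception being Acadl. The 12 were picked from called genes named in the text, so this count follows from the choice. Over all genes tested 12.5% did not overlap.

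Without RBX, diabetes changed 72 genes (0.652%), 36 up and 36 down, in 8 mice that share no array with the 8 above. The difference between the effects was tested directly as an interaction, which called 1272 genes (11.5%), 665 with a higher log2 fold change under RBX (6.02%) and 607 with a lower one (5.5%). Of the 784 genes called under RBX, 603 (76.9%) were also called for the interaction, against 11.5% of all genes. The interaction contains the effect by which the 784 were chosen, so this share follows in part from the choice. Of the 784 genes 671 had the opposite sign without RBX, and the share of opposite signs over all genes was not counted. The effects shared 25 calls, 34.7% of the 72 and 3.19% of the 784, with 0 in the same direction and 25 in opposite directions. Over the 11042 genes the log2 fold changes under and without RBX had a Pearson correlation of -0.36 and a Spearman correlation of -0.37, a description over genes that are not independent and whose arrays differ in cre signal. Without diabetic mouse 3 the interaction called 771 genes. With the cre covariate it called 0, with 1331 at an unadjusted p under 0.05, and with the Actb ratio 341.

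The genes with the smallest p for diabetes without RBX show the contrast. Sphkap, an anchor for protein kinase A, rose under RBX with signals of 1218, 1105, 977 and 958 in diabetic RBX mice, against 704, 377, 560.4 and 419 in non-diabetic RBX mice (log2 1.08, SE 0.22, adjusted p = 0.00574). Without RBX it averaged 1011 ± 155 in diabetic mice and 2886 ± 792 in non-diabetic mice (log2 -1.48, adjusted p = 0.00999), and the interaction was 2.57 (adjusted p = 0.000164). Mylk4 had a log2 fold change of 1.15 under RBX and -1.39 without it (adjusted p = 0.00999), an interaction of 2.54 (adjusted p = 0.000164). Wfdc1, a secreted protein with a whey acidic protein domain, rose by 0.59 under RBX (adjusted p = 0.027) and fell by 1.004 without it (adjusted p = 0.00999). Its rise under RBX was lost without diabetic RBX mouse 1 or 3 or non-diabetic RBX mouse 4 (adjusted p from 0.0727 to 0.0905).

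In 2 of these genes the effect without RBX had no counterpart past the threshold under it. Iigp1, an interferon-induced GTPase, had signals of 9649, 10231, 9889 and 12818 in diabetic RBX mice, against 11165, 8094, 10464 and 10389.8 in non-diabetic RBX mice, overlapping (log2 0.09, SE 0.11, adjusted p = 0.67). Without RBX it averaged 10221 ± 339 in diabetic mice and 4960.4 ± 440.0 in non-diabetic mice (log2 1.05, adjusted p = 0.00021), and the interaction was -0.96 (adjusted p = 0.000935). Denn2b had a log2 fold change of 0.27 under RBX (adjusted p = 0.306) and -1.03 without it (adjusted p = 0.00999). The interferon list as a whole had a median of -0.11 under RBX and 0.52 without it, where 6 of 28 rose, and 9 of its genes were called for the interaction, all lower under RBX.

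For contractile smooth muscle the interaction called 15 of 21 genes, all higher under RBX, with list medians of 0.66 under RBX and -0.35 without it. The interaction was 1.48 for Myocd (adjusted p = 0.000568), 2.65 for Ldb3 (adjusted p = 0.000178) and 2.18 for Hspb1 (adjusted p = 0.000205). These genes were named for their differences under RBX, which the interaction contains. Summed contractile signal in the groups without RBX ranged from 799696 to 956162 in diabetic mice, against 984821 to 1062700 in non-diabetic mice. The lowest of all 16 sums, 638392, belonged to a non-diabetic RBX mouse. Not every gene reversed: Mt1 had log2 fold changes of 0.85 under RBX and 0.30 without it, and the interaction did not pass (0.55, adjusted p = 0.132).

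**Figure D4:**
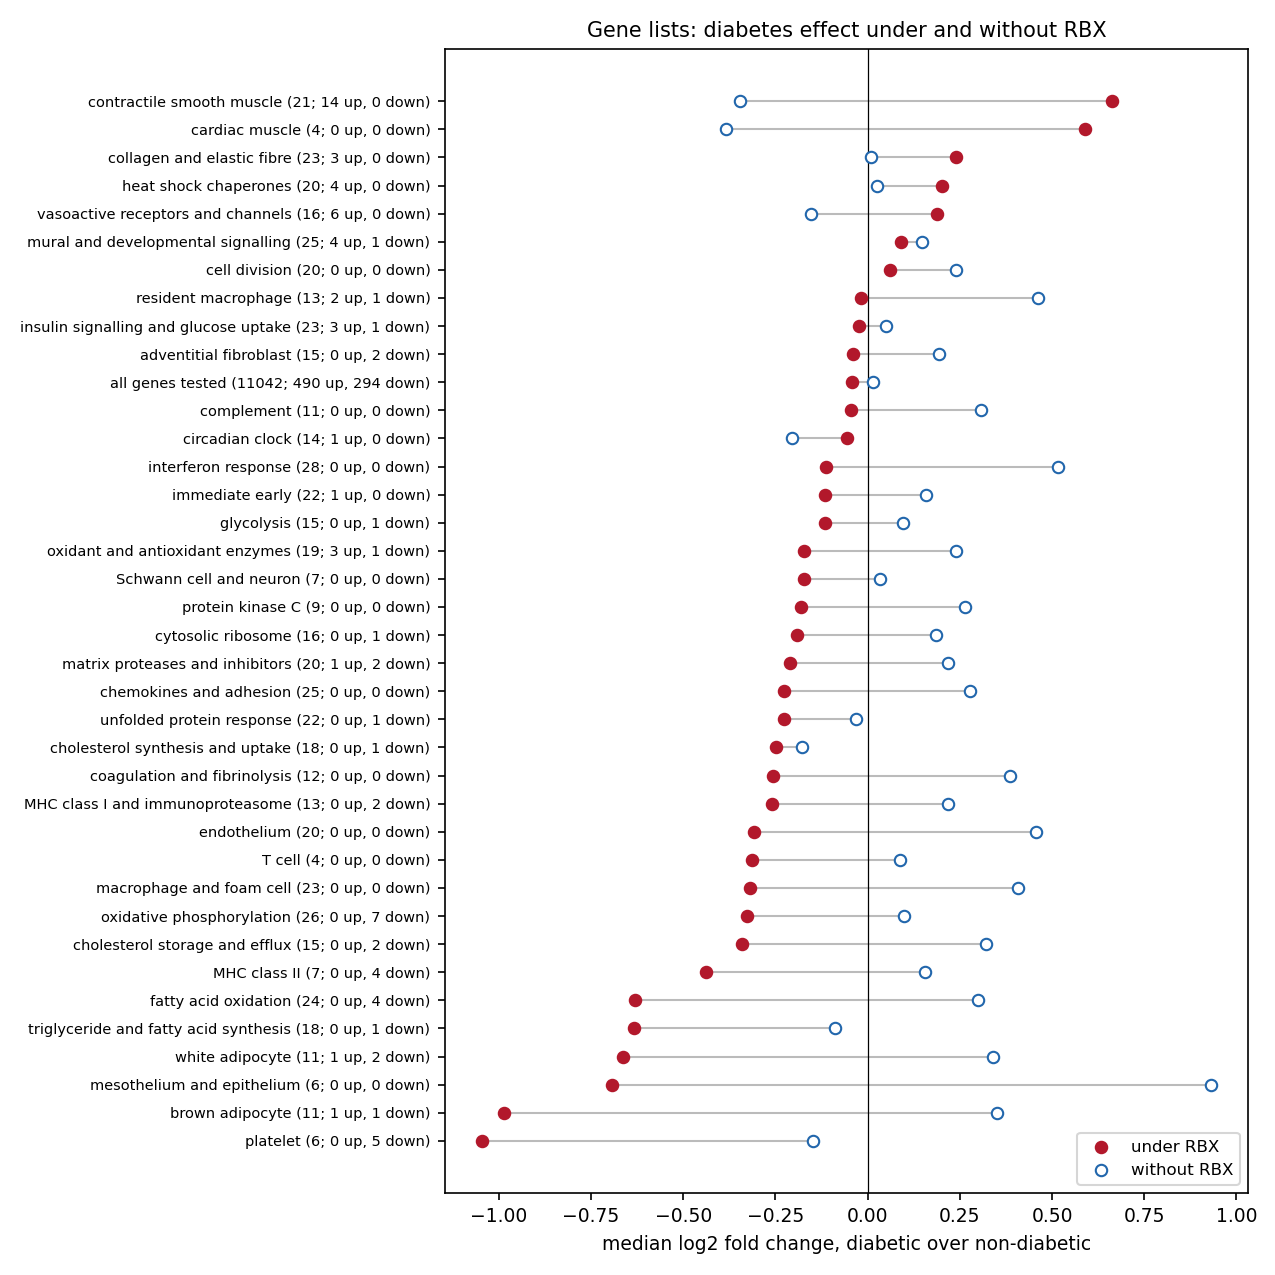
Median log2 fold change, diabetic over non-diabetic, of each gene list with at least 4 measured members, under RBX (filled) and without RBX (open). Numbers in brackets give the members measured and those up and down under RBX. The filled points run from -1.05 for platelet genes to 0.66 for contractile smooth muscle, against -0.04 for all genes tested.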

How the data were processed

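Whole aorta RNA of 16 mice was measured on 1 Affymetrix array per mouse. The authors deposited an intensity, not on a log scale, for each of 45101 probe sets, made with MAS5 per the submitters' processing notes, its version not given in the sources used here. Trimmed by 2% at either end, the mean was 1500.01 on every array, which shows a scaling of the arrays to a common trimmed mean, and a signal is read against that average. The labels call the 4 arrays of a group separate mice, and 4 per group limits the precision. Groups and numbers came from the titles, which do not say that equal numbers mark a litter or day. All columns were matched to samples by name, and no 2 arrays held identical values.

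Of the probe sets 34945 had 1 gene symbol in GEO's platform annotation, 932 had several and 9211 were unnamed here, and 64 were controls. RefSeq (GRCm38.p6) held 99.4% of the symbols and changed 0. Values were taken to log2 without an offset, probe sets were kept if their mean exceeded the overall median (381.5 as a signal), and the brightest was used for each gene, which left 11042 genes of 18193 symbols. limma 3.58.1 in R 4.3.3 (package data.table, version 1.17.8) fitted 4 group means to all 16 arrays with an intensity trend (12 residual and 6.2 prior degrees of freedom). P-values are two-sided with Benjamini-Hochberg adjustment across the genes tested, and rose, fell and called mean an adjusted p under 0.05. The interaction is the diabetes effect under RBX minus that without RBX. Array measures had exact permutation tests over 70 assignments. The fit was tested on simulated data.

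The members and the 41 gene lists (16 of cell types, 25 of pathways) were chosen with earlier results of these data known, so list counts are descriptions. Named by rule were Apoe and Prkcb, and the 10 largest rises and 10 largest falls among called genes without overlap. From each list described, the rule took the called members of smallest p, fewer than 4 per list. It also took the 5 genes of smallest p for diabetes without RBX and for the interaction. Clones and predicted genes were not named: 1 lay among the 10 largest rises and 2 among the falls. Other members are named to complete a count, or as known markers. Of the 77 genes named by the rule 32 had another measured probe set, and 48 of these 55 probe sets had the same sign. Alternatives changed the scaling (quantile normalization, 75th percentile), the filter (none, 70th percentile), the log (offset of 30.5), the probe sets (their mean) and the fit (no trend, robust variance, array weights, replicate block), or used log2 cre or the Actb ratio as a covariate, only the 8 arrays, a fold over 2, and each array left out in turn.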

Additional observations from a re-analysis of the deposited data

Results flagged for a closer look

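In 5 of 170 sets of 4 values, 1 mouse stood apart from the other 3 by more than Dixon's 95% limit, which chance passes in about 1 of 20 such sets. Diabetic RBX mouse 4 had a signal of 1125 for Rgs4, against 2481 to 2568 in the other 3 of its group. It had 955 for Otop1 (215 to 270 in the others), 15140.1 for Acadl (11096 to 11152) and 25986 for Plin2 (21107 to 21599). Diabetic RBX mouse 1 had 868 for Tcof1, against 1116 to 1144.

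The diabetes effect under RBX differed from that without it in 62 of the 77 named genes by limma's interaction test, against 11.5% of all genes and 76.9% of those called under RBX. The named genes were chosen by their differences under RBX and some by the interaction itself, so this count follows in part from the choice. The values below are the log2 fold change under RBX minus that without RBX, so a positive value means a higher one under RBX. Muscle genes were all positive: Ldb3 2.65, Mylk4 2.54, Myoz2 2.36, Myom1 2.27, Dtna 2.12, Synpo2 1.90, Itga7 1.76, Myocd 1.48, Vcl 1.29 and Pgm5 1.23. So were the vasoactive genes Rgs4 (1.99), Rgs5 (1.91) and Ptgis (1.02), and the matrix and signalling genes Sost 3.06, Npnt 2.76, Wif1 1.84, Ltbp1 1.57, Adamts1 1.13, Tnc 1.11, Postn 1.10 and Lox 1.09. Stress genes were positive too, with Hspb1 at 2.18, Nox4 at 1.82, Mt2 at 1.01, Dnajb4 at 0.96 and Hsp90aa1 at 0.89. Further positive values were found for Igsf9 (3.47), Krtap12-1 (2.71), Sphkap (2.57), Saa3 (1.74), Wfdc1 (1.59), Denn2b (1.30), Cbr2 (1.16), Plin4 (1.06), Prdm16 (0.74), Igf1r (0.71) and Pik3ca (0.52).

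Lipid and mitochondrial genes were mostly negative: Plin2 -1.74, Acadl -1.30, Etfb -1.27, Nr1h3 -1.06, Pnpla2 -1.05, Cebpa -0.99, Acot2 -0.95, Uqcrc1 -0.84, Sdhb -0.79 and Atp5b -0.64. Plin4, a lipid droplet coat protein, and Prdm16, a transcription factor of brown fat, ran the other way, at 1.06 and 0.74. MHC class II, immunoproteasome and interferon genes were negative as well, with Psmb8 at -1.15, Iigp1 at -0.96, H2-Ab1 at -0.90, Psmb9 at -0.86 and H2-Aa at -0.66. Pf4, which macrophages and platelets both make, was at -1.18. In the platelet list the interaction called 0 of 6 genes, and Ppbp had -0.24 (adjusted p = 0.834). The remaining negative values belonged to Apoe (-2.54), Fcor (-1.84), Rgcc (-1.76), Tcof1 (-1.73), B3galt5 (-1.62), Vegfc (-1.36), Mmp12 (-1.27), Igfbp5 (-0.81) and Mmp23 (-0.59). The non-diabetic RBX arrays, which enter each of these, also had the highest cre signals, and with log2 cre as a covariate 0 interactions were called over all genes.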

How the results depend on the processing

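Diabetes under RBX called 784 genes. The count was 46 with log2 cre as a covariate, 289 with the Actb ratio, 387 on only the 8 arrays and 110 with a fold over 2, and ranged from 400 to 916 with 1 RBX array left out. With cre the median standard error over the 784 genes was 0.18, against 0.14 without it. Quantile normalization (856), the replicate block (819), the filters, scalings, variance settings and array weights stayed within 1.5 times the count (596 to 856). The interaction called 1272 genes, 0 with cre, 341 with the Actb ratio, 1382 with the replicate block, and 771 to 1529 with 1 array left out. Equal replicate numbers of the RBX groups had correlations of deviations from -0.02 to 0.07, against -0.14 to 0.07 for unequal numbers. The mice were not treated as paired. Such correlations cannot exclude a shared litter or day, and the groups without RBX were not compared in this way. The share of rises among calls, 62.5%, was 52.8% without non-diabetic RBX mouse 3. Of 1602 runs on named genes 1299 kept direction and call, 299 lost the call and 4 reversed: Cbr2 (-0.042) and Denn2b (-0.10) with cre, and Iigp1 without diabetic RBX mouse 4 (-0.0052) or non-diabetic RBX mouse 2 (-0.012). In lists of at least 4 measured members, the medians that changed sign with cre were macrophage and foam cell (0.14), matrix proteases (0.15), cholesterol storage and efflux (0.089), oxidant and antioxidant enzymes (0.029), cytosolic ribosome (0.018) and cell division (-0.074). Quantile normalization turned adventitial fibroblast (0.0071) and complement (0.050), no filter turned cardiac muscle (-0.085), and the mean over probe sets turned mural and developmental signalling (-0.046), cell division (-0.022), resident macrophage (0.0054) and insulin signalling (0.011). The 70th percentile filter turned complement (0.097) and the Actb ratio cell division (-0.027). With 1 array left out, the medians of resident macrophage, adventitial fibroblast, circadian clock and insulin signalling changed sign in at least 1 run. The causes were not tested. Genes near the filter level have log2 fold changes that rest on dim signals.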

Other observations

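The effect of diabetes under RBX ran with the effect without it in few genes. Of the 784 called genes, 7 had the same sign and an unadjusted p under 0.05 without RBX, against 287 with the opposite sign. Over all genes tested 15.2% had an unadjusted p under 0.05 without RBX, and their signs were not compared in this way. The genes named from the 7 were chosen after their values were seen. Slc8a1, the sodium-calcium exchanger, averaged 1383 ± 154 in diabetic RBX mice and 746 ± 147 in non-diabetic RBX mice (log2 0.90, SE 0.18, adjusted p = 0.00533), and its log2 fold change without RBX was 0.46 (adjusted p = 0.217). Ccl8 had log2 fold changes of 0.83 under RBX and 0.73 without it, and Ppbp of -1.92 and -1.68. Mrtfb, a coactivator of serum response factor, had 0.33 and 0.22. Me1 had -0.60 and -0.53 and Tns3, a focal adhesion protein, -0.37 and -0.21. Without RBX none of the 7 passed adjustment, and for none did the interaction pass.

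Fibroblast and surface markers showed little. Of 15 adventitial fibroblast markers 0 rose and 2 fell, Pi16 (log2 -0.59, adjusted p = 0.0063) and Gsn (log2 -0.40, adjusted p = 0.0453), both named to complete the count. Of the list 13.3% was called, against 7.1% of all genes. The list's median was -0.04, and with the cre covariate it was -0.36 with 0 called. Mesothelial and epithelial markers had a median of -0.69 with 0 of 6 called (1 at an unadjusted p under 0.05 in limma), and without RBX the median was 0.93. Schwann cell and neuron markers had 0 of 7 called, 2 at an unadjusted p under 0.05.

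In several other pathways few genes were called. An unadjusted p under 0.05 was found for 24% of all genes tested, and 7.1% were called. In limma 0 of 25 chemokine and adhesion genes were called (9 at an unadjusted p under 0.05), 0 of 11 complement genes (0), 0 of 12 coagulation genes (4) and 0 of 20 cell division genes (1). In the clock list 1 of 14 genes rose, as did 1 of 22 immediate early genes. With the cre covariate 0 clock genes were called, and of the immediate early genes 0 rose and 1 fell.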
